A study of Schizosaccharomyces pombe with 39 samples.

Results

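A set of 9 genes of iron handling in fission yeast, Schizosaccharomyces pombe, is described here across 39 libraries of polyadenylated RNA: the regulators fep1, php4 and grx4, the iron-storage gene pcl1, the iron-sulphur assembly gene isa1, and sdh2, aco1, rli1 and glt1, which encode enzymes that carry iron. They were chosen by gene name, and 9 of 9 were found among 6745 gene identifiers and passed the filter on low counts in every comparison. The study followed how cells respond when Epe1, a nuclear protein that opposes the spread of heterochromatin, is taken away and given back. Every strain lacked mst2, which encodes a histone acetyltransferase (mst2D in the labels). In the degron strain, epe1 stood under the thiamine-repressible nmt81 promoter with 3xFLAG and AID tags, and the receptors OsTIR1 and AtTIR1, fused to skp1 under adh15prom, were carried at ade6. Cells grew in EMMC medium at 32 °C to log phase. Depletion meant adding thiamine and 1-naphthaleneacetic acid, an auxin analogue (TN in the labels).

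The time course sampled the degron strain at 0, 24, 48, 72, 96 and 120 h of depletion. A separate memory experiment sampled the same genotype untreated, after 120 h of depletion, after recovery without TN for 24 h or 48 h, and after depletion was repeated for 24 h on cells that had recovered for 24 h (the second depletion). The epe1 deletion strain (mst2Depe1D) was labelled as biological replicates 1 and 2, which were kept as separate groups. Each of the 13 groups had 3 libraries. No degron-free strain was given TN in the libraries analysed, so effects of thiamine, of the auxin analogue and of Epe1 loss cannot be told apart. No label says that replicates came from separate cultures, so p-values measure the spread between these libraries, which may be technical.

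Fission yeast balances iron with a pair of repressors. Fep1, a GATA-type zinc-finger protein, represses genes of iron uptake, and also php4, when iron is ample. When iron is scarce, Php4 joins the CCAAT-binding complex of Php2, Php3 and Php5 and represses genes whose products store or use iron, and fep1 as well. Grx4, a monothiol glutaredoxin, binds both repressors and switches their activity with iron status. Pcl1 is a vacuolar iron transporter, Isa1 helps to build iron-sulphur clusters, Sdh2 is the iron-sulphur subunit of succinate dehydrogenase, Aco1 is aconitase, Rli1 is an iron-sulphur protein of the ABC family that recycles ribosomes, and Glt1 is glutamate synthase.

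The promoters of these genes are shown because they hold the words that the complexes read. In the 250 bases before the gene start of RefSeq's annotation of build ASM294v3, CCAAT on either strand was present in 8 of 9 members, grx4 being the exception, and in 35.3% of 5112 promoters of that length. The GATA words AGATAA or AGATAT, and likewise TGATAA or TGATAT, searched together on both strands and counted apart from CCAAT, were present in 7 of 9 members, isa1 and sdh2 being the exceptions, and in 62.3% of promoters. A match is a word in the sequence and not a measured binding site. The deposited coordinates place the start of every member elsewhere than RefSeq does. They start grx4 at 3957094, before the whole stretch searched for it (3957134 to 3957383), and both annotations end it at 3958479. For grx4, bases before the deposited start were therefore not searched for CCAAT or GATA words. The stretches below run 5′ to 3′ on the strand of the gene, with the word in capitals. The php4 stretch (chrII:1916975-1917034, minus strand) holds a GATA word beginning 98 bases before the RefSeq start (1916892) and fewer before the deposited start (1916974). The others hold CCAAT, or ATTGG where the word is on the opposite strand, at 58 bases for pcl1 (chrII:165332-165390, minus), 53 for isa1 (chrIII:1231878-1231936, minus), 67 for sdh2 (chrI:1895337-1895395, plus) and 80 for glt1 (chrI:3302718-3302776, plus).
php4: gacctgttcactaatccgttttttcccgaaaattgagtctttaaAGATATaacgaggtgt
pcl1: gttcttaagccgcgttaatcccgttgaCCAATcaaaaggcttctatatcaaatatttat
isa1: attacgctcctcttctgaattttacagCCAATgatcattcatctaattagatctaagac
sdh2: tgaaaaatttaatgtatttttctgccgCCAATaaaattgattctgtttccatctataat
glt1: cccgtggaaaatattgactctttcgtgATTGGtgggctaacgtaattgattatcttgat

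In the coordinates of the deposited tables, whose headers name ASM294v2, php4 (SPBC16E9.01c) lies on chromosome II at 1915375 to 1916974, grx4 (SPBC26H8.06) on II at 3957094 to 3958479 and fep1 (SPAC23E2.01) on I at 442201 to 445721. The storage and assembly genes are pcl1 (SPBC1683.10c, II, 163534 to 165317) and isa1 (SPCC645.03c, III, 1230674 to 1231827). The enzyme genes are sdh2 (SPAC140.01, I, 1895436 to 1896752), aco1 (SPAC24C9.06c, I, 3048060 to 3051537), rli1 (SPBC14F5.06, II, 4164564 to 4167261) and glt1 (SPAPB1E7.07, I, 3302875 to 3310369). Over 11.4% of its length pcl1 overlaps the non-coding gene SPNCRNA.100, and subtracting the counts of that gene changed no call.

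A time-course library held 20347886 to 26976973 counts, a library of the memory experiment 14781022 to 21626064, and one of the deletion strain 20733636 to 27900659. Counts of epe1 minus all counts of the overlapping gene prl67 were scaled to the library total (CPM). They were 72.4 to 87.4 at 0 h and 28.8 to 42.6 in the depleted time-course libraries. In the memory experiment they were 104.5 to 115.9 in untreated and 7.78 to 30.2 in depleted libraries. The deletion strain held 15.7 to 19.97, although epe1 is deleted there, so these counts do not measure intact epe1 RNA. Libraries of the second depletion (7.78 to 19.84) lay within or below that range. The source of these counts was not tested. Individual libraries stood apart in the members themselves at 24 h (replicate 2), 48 h (replicate 1) and 72 h (replicate 1), as described with those times. In the memory experiment the counts followed the GC content of genes differently between libraries, with Spearman's rho over 6380 genes from -0.592 (120 h, replicate 3) to 0.674 (second depletion, replicate 2), against -0.149 to 0.15 over 6548 genes in the time course.

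Levels of the members are given in CPM after a joint scaling (TMM) of all 39 libraries. Per kilobase of gene, sdh2 stood highest at 0 h with 318.9 ± 54.1 CPM per kb (SD, n = 3), followed by aco1 at 223.3 ± 14.1 and grx4 at 209.4 ± 18.1. The genes pcl1, rli1 and isa1 lay at 194.5, 178.5 and 150.9, glt1 and php4 at 66.0 and 53.1, and fep1 was lowest at 21.9 ± 1.73. Over the 13 groups, the time course at 120 h held the lowest mean level of 7 members, fep1, pcl1, isa1, sdh2, aco1, rli1 and glt1. The same group held the highest mean level of php4 and of grx4. When the groups were placed in order of their means, most neighbours overlapped in range: of 12 neighbouring pairs, 10 overlapped for php4, 12 for glt1, 11 each for fep1, grx4, isa1 and aco1, and 9 each for pcl1, sdh2 and rli1.

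**Figure D1:**
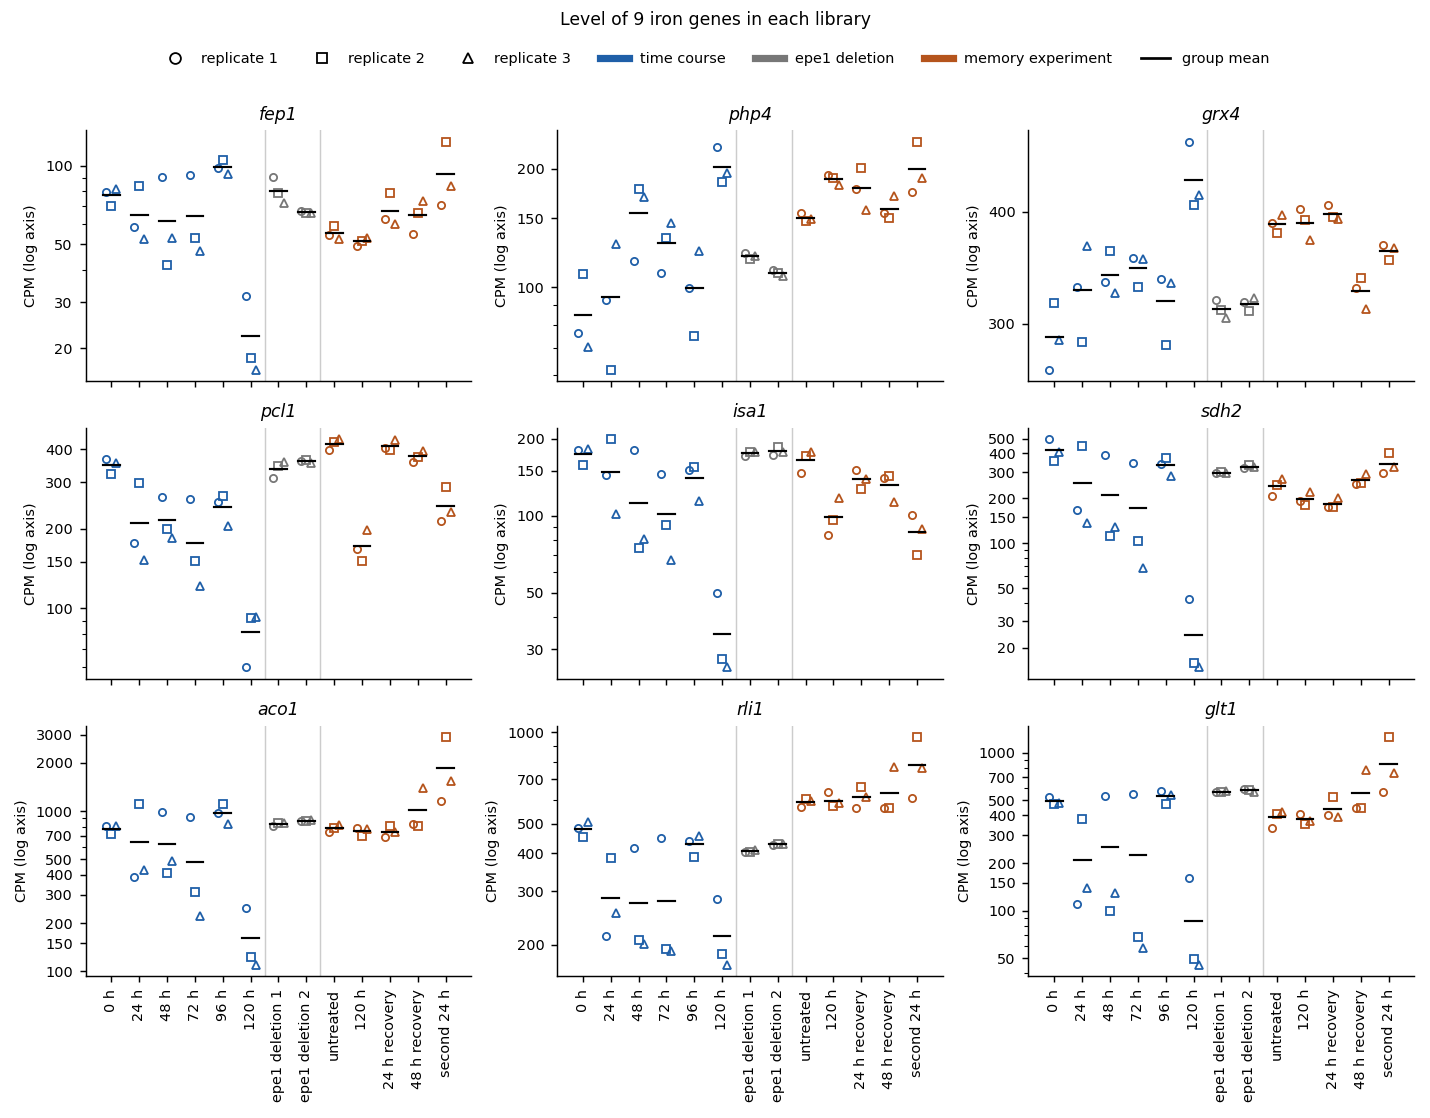
Level of each member (CPM, log axis) in each library of the 13 groups, with a symbol for each replicate and a black line for the group mean. On average the libraries at 120 h of the time course are lowest for 7 members and highest for php4 and grx4, while at 24, 48 and 72 h a single library of glt1 lies above its group, at 380.7, 531.1 and 543.7 CPM.

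php4 was raised after 120 h in the time course. It was at 76.3, 108.0 and 70.6 CPM in the 0 h libraries and at 227.6, 185.0 and 195.1 CPM at 120 h. The groups did not overlap, and the rise was 2.4-fold (log2 change 1.26 ± 0.26 SE, adjusted p = 0.00362, edgeR's quasi-likelihood test with Benjamini-Hochberg adjustment over all genes, as for every adjusted p below). At 48 h it had risen 1.84-fold (116.4, 177.9 and 169.8 CPM, log2 change 0.88 ± 0.25, adjusted p = 0.0104). At 24, 72 and 96 h it did not pass the test, with log2 changes of 0.18 (adjusted p = 0.598), 0.62 (0.111) and 0.23 (0.611).

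fep1 moved the opposite way at 120 h. Its libraries held 79.5, 70.3 and 81.8 CPM at 0 h and 31.7, 18.4 and 16.5 CPM at 120 h. All the 120 h libraries lay below all the 0 h libraries, a fall of 3.45-fold (log2 change -1.79 ± 0.31, adjusted p = 0.00104). At 96 h its libraries held 98.4, 105.2 and 93.4 CPM, above the 0 h range, although the log2 change of 0.36 did not pass the test (adjusted p = 0.462).

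grx4 rose by a smaller factor. It held 266.6, 316.4 and 287.5 CPM at 0 h and 478.6, 406.5 and 417.7 CPM at 120 h. These groups did not overlap, and the rise was 1.51-fold (log2 change 0.59 ± 0.10, adjusted p = 8.00e-04).

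The storage, assembly and enzyme genes were all lower at 120 h, and 5 of 6 passed the test. The transporter gene pcl1 went from 365.7, 321.5 and 353.9 CPM at 0 h to 59.9, 92.0 and 92.8 CPM, a fall of 4.22-fold (log2 change -2.08 ± 0.28, adjusted p = 1.21e-04). isa1 went from 180.3, 158.6 and 183.5 to 49.8, 27.5 and 25.5 CPM, a fall of 5.05-fold (adjusted p = 6.27e-04). The groups did not overlap for either gene, and replicate 1 at 120 h was the lowest library for pcl1 but the highest of its group for isa1.

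sdh2 showed the steepest fall of the members that passed the test. It held 496.3, 355.4 and 408.1 CPM at 0 h and 42.4, 15.7 and 14.8 CPM at 120 h, a fall of 17.2-fold (log2 change -4.10 ± 0.71, adjusted p = 0.00122). aco1 fell 4.81-fold, from 806.4, 720.2 and 803.9 to 247.6, 123.5 and 109.5 CPM (adjusted p = 0.0098). rli1 fell 2.23-fold, from 485.9, 451.6 and 507.0 to 283.3, 187.3 and 171.9 CPM (adjusted p = 0.0304). In all of these genes replicate 1 at 120 h lay above the other 120 h libraries and below the 0 h libraries.

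glt1 did not pass the test at 120 h in spite of groups that did not overlap. It held 526.1, 475.0 and 482.7 CPM at 0 h and 161.8, 49.5 and 45.3 CPM at 120 h, with a log2 change of -2.52 ± 0.86 (adjusted p = 0.0668). Without the 120 h library of replicate 1 the log2 change was -3.37 and passed (adjusted p = 0.043). glt1 also passed without replicate 1 at 48 h (0.0475) or at 72 h (0.0175). The same held with the compared groups alone (0.0328) and with the replicate block (0.0174). In all, 8 of 9 members were called at 120 h, where 14.1% of all genes tested were called. The call of rli1 was lost without any single 0 h library or without replicate 2 or 3 at 120 h (adjusted p from 0.0572 to 0.12), and that of aco1 without replicate 3 at 120 h (0.0518).

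Against 96 h, the same strain at 120 h was lower for fep1 (4.44-fold), pcl1 (2.94-fold), isa1 (4.07-fold), sdh2 (13.6-fold) and aco1 (6.05-fold) and higher for php4 (2.04-fold) and grx4 (1.37-fold). These 7 of 9 members passed the test, where 7.92% of all genes were called. rli1 (adjusted p = 0.0807) and glt1 (0.0776) did not pass. rli1 passed with DESeq2 (0.0229), the compared groups alone (0.0275), the replicate block (0.0443) or without replicate 1 at 72 h (0.0297). glt1 passed with the block (0.0247) or without replicate 1 at 72 h (0.0223). The call of php4 was lost without replicate 1 or 2 at 96 h or any 120 h library (adjusted p from 0.0583 to 0.11), that of grx4 without replicate 2 at 96 h (0.0711), and that of aco1 without replicate 2 or 3 at 120 h (0.0591 and 0.0552). With the compared groups alone grx4 was just short of the threshold (0.0501). At 96 h itself none of the 9 members differed from 0 h by edgeR, where 12.5% of all genes were called, and none had an unadjusted p under 0.05 or was called by DESeq2. glt1 at 96 h held 575.4, 469.9 and 541.2 CPM, and sdh2 340.2, 374.4 and 282.9 CPM, ranges that overlapped those at 0 h. At 96 h fep1 and aco1 (973.9, 1114 and 828.7 CPM) stood above their 0 h ranges. pcl1 (252.0, 265.8 and 204.7 CPM, log2 change -0.52) and isa1 (150.7, 155.0 and 114.2 CPM, -0.31) stood below theirs. The share of all genes with ranges apart was not counted. With the compared groups alone fep1 (adjusted p = 0.0209) and pcl1 (0.0205) were called.

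At 24, 48 and 72 h the enzyme genes spread widely between replicates. glt1 held 110.8, 380.7 and 139.7 CPM at 24 h, 531.1, 99.9 and 129.2 CPM at 48 h, and 543.7, 68.2 and 58.2 CPM at 72 h. Replicate 2 at 24 h and replicate 1 at 48 and 72 h were the high libraries, and at 72 h the highest was 9.35 times the lowest. The SD of log2 levels of glt1 at 72 h was 1.79, against a median of 0.12 over all genes.

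The enzyme genes sdh2 and aco1 had the same high libraries. sdh2 held 168.1, 450.3 and 137.5 CPM at 24 h, 389.5, 112.3 and 128.7 CPM at 48 h, and 344.0, 103.1 and 68.8 CPM at 72 h. aco1 held 385.2, 1115 and 426.2 CPM at 24 h, 985.5, 408.7 and 484.8 CPM at 48 h, and 919.8, 311.7 and 221.4 CPM at 72 h. In each of these libraries php4 was at its lowest of the group: 61.8 CPM in replicate 2 at 24 h, against 92.7 and 128.9, and 108.8 CPM in replicate 1 at 72 h, against 133.4 and 145.6.

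Counted over the 3 groups, 7 of 8 other members (fep1, pcl1, isa1, sdh2, aco1, rli1 and glt1, but not grx4) were highest in the library in which php4 was lowest, at all of 24, 48 and 72 h. The same held for 774 of 6512 other genes, 11.9%. It did not hold in every group. At 120 h php4 was highest in replicate 1 (227.6 CPM), where fep1, grx4, isa1, sdh2, aco1, rli1 and glt1 were also highest and pcl1 was lowest. In the second depletion fep1, pcl1, sdh2, aco1, rli1 and glt1 were highest and lowest in the same libraries as php4, while grx4 and isa1 went the other way. These counts describe the libraries and are not a test, and replicates with these levels were not grouped.

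**Figure D2:**
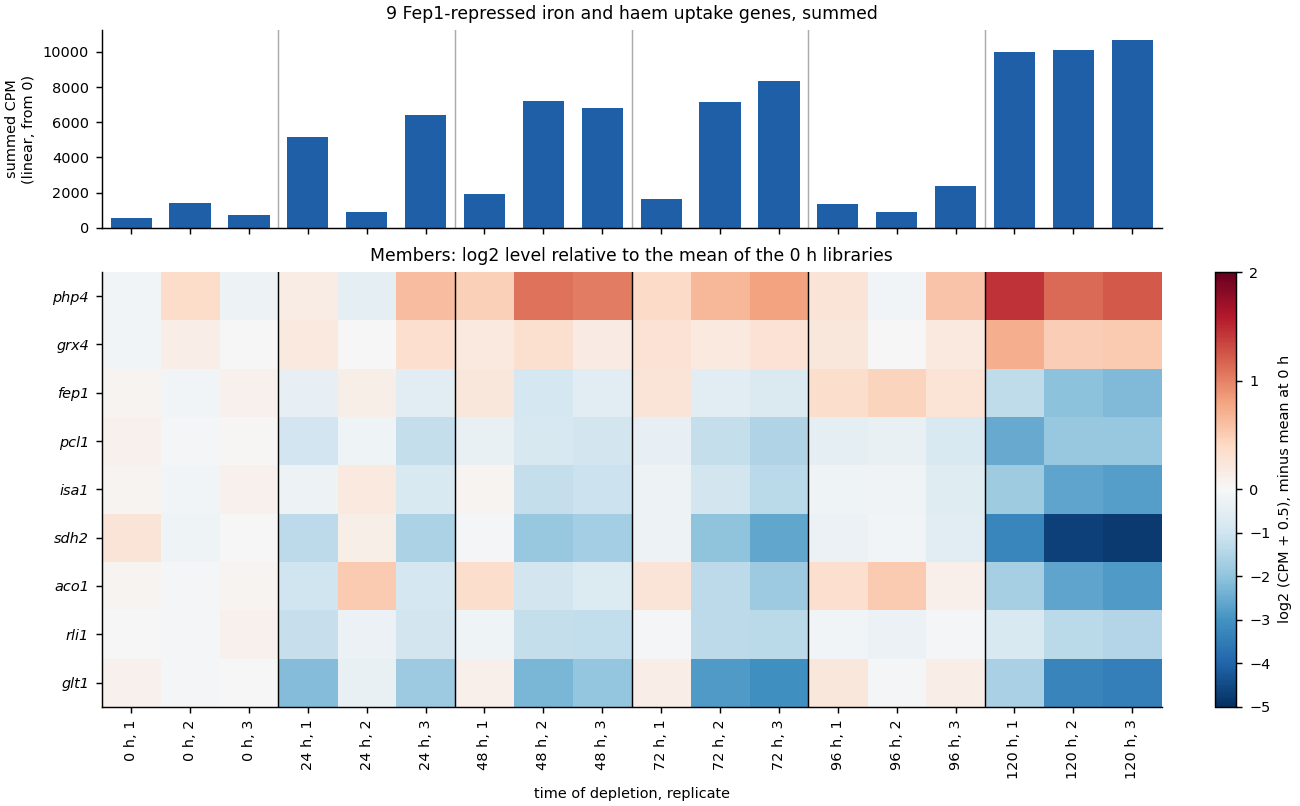
Upper panel, summed CPM of 9 iron and haem uptake genes in each of the 18 time-course libraries; lower panel, log2 level of each member in the same libraries relative to the mean of the 0 h libraries. The libraries of 24 h (replicate 2), 48 h (replicate 1) and 72 h (replicate 1) have uptake sums of 910, 1940 and 1630 CPM, the lowest of their groups, and the 120 h libraries have the highest sums, 9980 to 10700 CPM.

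Few members passed at the early times. At 24 h none of the 9 was called by edgeR, where 37.7% of all genes were called. An unadjusted p under 0.05 was found for 2 members (pcl1 and rli1), and DESeq2 called 1 (pcl1). Without replicate 2 at 24 h, pcl1 (log2 change -1.04, adjusted p = 0.0108) and grx4 (0.29, 0.0426) passed. Leaving out replicate 1 or 3 at 72 h or replicate 1 at 120 h, which share the estimate of the spread, also took pcl1 past the threshold (adjusted p from 0.0258 to 0.0448), and the first of these also rli1 (0.0427). At 48 h the count was 1 of 9 (php4), against 48.0% of all genes. Without replicate 1 at 48 h, pcl1 (-0.83, adjusted p = 0.0367), isa1 (-1.13, 0.0131), sdh2 (-1.77, 0.0434) and rli1 (-1.21, 0.0092) passed as well. Leaving out other single libraries of the fit brought pcl1 (adjusted p from 0.0242 to 0.0446) and grx4 (from 0.0366 to 0.0484) past the threshold at 48 h in 5 refits each, and rli1 (0.0229) in 1.

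At 72 h pcl1 was the member called, 1 of 9, against 15.8% of all genes. It held 258.9, 151.2 and 121.6 CPM, a fall of 1.95-fold from 0 h (log2 change -0.96 ± 0.27, adjusted p = 0.0251). Its call was lost without replicate 1 or 3 at 0 h (adjusted p = 0.0725 and 0.0648) or replicate 2 or 3 at 72 h (0.102 for each). No label pairs the replicates. Between 0 h and 72 h, deviations of same-numbered libraries from their group means correlated weakly (0.161 to 0.175). With the replicate as a block, isa1 (-0.85, adjusted p = 0.0416) and sdh2 (-1.56, 0.0497) were called as well. Without replicate 1 at 72 h, sdh2 (-2.26, adjusted p = 0.0282), aco1 (-1.51, 0.0456), rli1 (-1.29, 0.0113) and glt1 (-2.94, 0.0209) passed. Between 72 h and 48 h no member was called by edgeR or DESeq2, where edgeR called 16.9% of all genes, and none had an unadjusted p under 0.05.

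Other genes of the pathway moved in the same libraries. Of 10 uptake genes that Fep1 represses, 9 were higher and none lower at 120 h, with a median log2 change of 2.95 against 0.01 over all genes tested. They included abc3, a vacuolar transporter (6.24-fold, adjusted p = 0.00166), and str1, a siderophore-iron transporter (7.83-fold, 0.00517). The haem-uptake gene shu1 had 1, 0 and 0 counts at 0 h and 3228, 11299 and 13764 counts at 120 h. Summed over the 9 uptake genes present in all tables (all but str2), the level was 587, 1410 and 724 CPM at 0 h, and 5160, 910 and 6440 CPM at 24 h. It was 1940, 7230 and 6790 CPM at 48 h, 1630, 7160 and 8370 CPM at 72 h, and 1360, 882 and 2380 CPM at 96 h. The low libraries of this sum at 24, 48 and 72 h were those in which sdh2, aco1 and glt1 were high.

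Of 13 other genes whose products carry iron-sulphur clusters or haem or share their complexes, 10 were lower and none higher at 120 h, with a median log2 change of -1.74. Catalase ctt1 fell 31.9-fold (adjusted p = 6.51e-04), cytochrome c cyc1 10.1-fold (0.00119), the Rieske protein gene rip1 3.33-fold (1.87e-04) and cytochrome c1 cyt1 2.95-fold (5.09e-04). Among 10 other genes of iron-sulphur assembly, isu1, the scaffold, rose 3.23-fold (9.57e-04), the mitochondrial exporter gene atm1 rose 1.31-fold (0.00485) and the glutaredoxin gene grx5 fell 1.76-fold (0.0361). The other 7 were not called, and the median of the list was -0.06.

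Of the genes of the CCAAT-binding complex that Php4 joins, php2 rose 2.25-fold at 24 h (adjusted p = 8.12e-04) and 2.46-fold at 48 h (1.92e-04), and php3 rose 1.2-fold (0.00282) and 1.42-fold (5.05e-06) at these times. php5 was not called, with log2 changes of 0.01 (adjusted p = 0.927) and -0.04 (0.674). At 120 h none of php2, php3 and php5 was called by edgeR, with log2 changes of -0.16, 0.14 and -0.20.

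In the epe1 deletion strain 1 member was called against 0 h. The labels put the 3 libraries of each deletion group in a single biological replicate, so the p-values against 0 h take repeats of that replicate as n = 3 and hold no spread between biological replicates within a group. sdh2 held 296.7, 299.6 and 293.7 CPM in biological replicate 1 and 320.7, 335.8 and 324.3 CPM in biological replicate 2, below the 0 h range but short of the threshold (adjusted p = 0.248 and 0.412). php4 held 122.1, 118.3 and 120.2 CPM in biological replicate 1, above all 0 h libraries, a rise of 1.41-fold (log2 change 0.49 ± 0.13, adjusted p = 0.0135). It was the 1 member of 9 called there, where 32.8% of all genes were called, and the call was lost without replicate 1 at 0 h (adjusted p = 0.0538) and with the compared groups alone (0.0537).

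In biological replicate 2 php4 was at 110.8, 108.8 and 107.1 CPM, and no member was called by edgeR, where 31.3% of all genes were called. There php4 alone had an unadjusted p under 0.05, and DESeq2 called it. Replicate 1 at 120 h shares the estimate of the spread in this fit. Without it sdh2, rli1 and glt1 also passed in biological replicate 1. In biological replicate 2 fep1, sdh2, aco1, rli1 and glt1 passed. The log2 changes of those gained ran from -0.51 to 0.22, and the share of all genes called in that refit is not given here. Between the biological replicates no member was called by edgeR or DESeq2 and none had an unadjusted p under 0.05; edgeR called 0.775% of all genes.

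Against the degron strain at 120 h, the mean of both biological replicates differed in 9 of 9 members, 7 higher and 2 lower, where 42.4% of all genes were called. sdh2 was 12.7-fold higher (adjusted p = 3.37e-05), glt1 6.6-fold (6.43e-04), aco1 5.24-fold (2.39e-05), isa1 5.12-fold (6.86e-06), pcl1 4.22-fold (2.02e-07), fep1 3.25-fold (3.36e-05) and rli1 1.92-fold (1.29e-04). php4 was 1.79-fold lower (9.79e-05) and grx4 1.4-fold lower (3.80e-05). When the 3 libraries of a biological replicate were added up into 1, 9 of 9 were called as well. Strain, treatment and table differ together here and cannot be told apart.

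In the memory experiment, 120 h of depletion lowered 2 of 9 members, where 6.15% of all genes were called. pcl1 went from 397.8, 426.5 and 434.9 CPM untreated to 167.2, 151.2 and 197.2 CPM, a fall of 2.47-fold (log2 change -1.31 ± 0.11, adjusted p = 5.89e-06). isa1 went from 146.8, 171.8 and 178.0 to 84.3, 96.4 and 117.2 CPM, a fall of 1.69-fold (adjusted p = 0.00613). Neither gene overlapped between these groups.

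The enzyme genes kept overlapping ranges in that comparison. sdh2 held 206.2, 247.1 and 267.9 CPM untreated and 192.1, 180.9 and 221.2 CPM at 120 h (adjusted p = 0.264). aco1 held 742.9, 780.6 and 821.7 CPM and then 786.5, 698.1 and 778.3 CPM (0.989). php4 was already at 154.1, 147.4 and 149.2 CPM untreated, above the 0 h range of the time course, and at 192.7, 190.0 and 181.9 CPM after 120 h, a log2 change of 0.31 that did not pass (adjusted p = 0.121) but passed after correction for GC content (0.30, 0.00591). The 9 uptake genes summed to 3160 to 3690 CPM untreated and 3700 to 4530 CPM at 120 h, and 3 of 9 were called higher.

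After 24 h of recovery pcl1 was at 404.8, 395.2 and 433.4 CPM, 2.39-fold above 120 h (adjusted p = 8.84e-06). It was the 1 member of 9 called in that comparison, where 4.73% of all genes were called, and its range overlapped the untreated range. isa1 held 151.2, 127.2 and 139.8 CPM, a log2 change of 0.49 from 120 h (adjusted p = 0.0926, or 0.00161 after GC correction and 0.0308 without replicate 2 of the second depletion).

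Against untreated libraries, no member was called after 24 h or 48 h of recovery by edgeR, where 3.04% and 2.42% of all genes were called. An unadjusted p under 0.05 was found for php4 and sdh2 at 24 h, and for grx4 and isa1 at 48 h. DESeq2 called none at 24 h and 1 at 48 h, grx4 (log2 change -0.25, adjusted p = 3.35e-06). Without replicate 2 of the second depletion, which shares the estimate of the spread, edgeR called sdh2 at 24 h (-0.40, adjusted p = 0.0375) and grx4 at 48 h (-0.25, 0.0242).

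**Figure D3:**
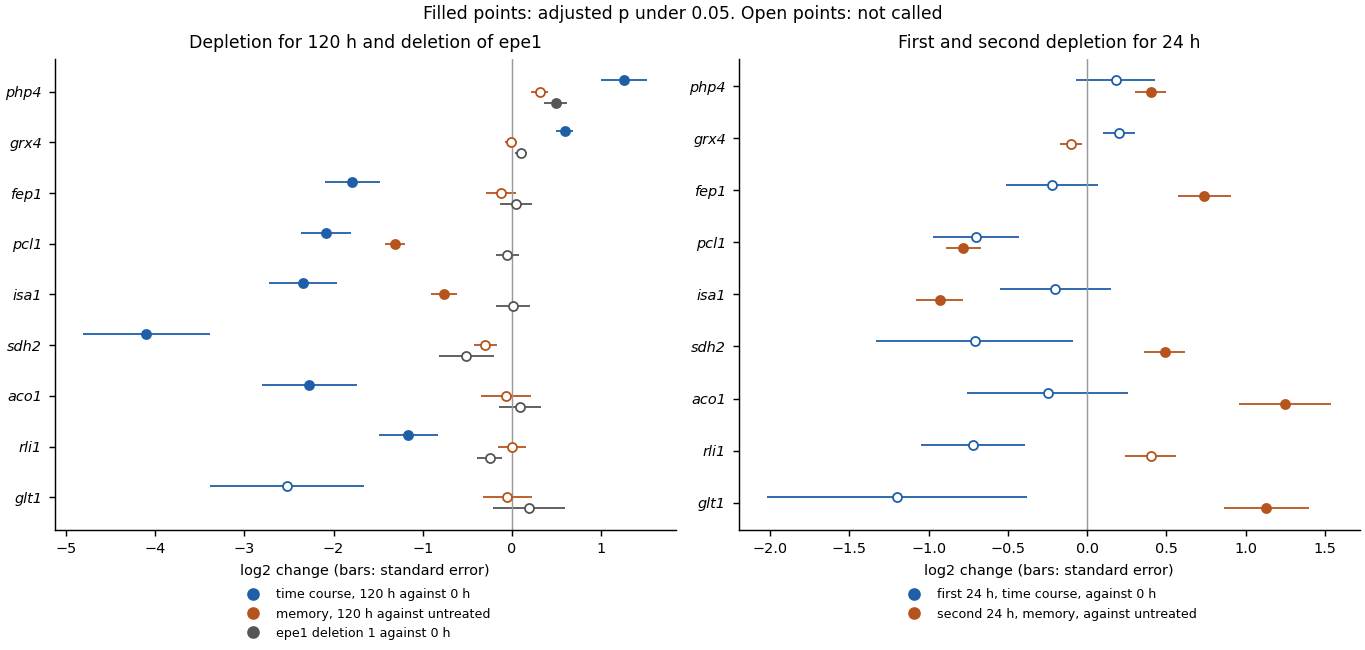
Log2 change of each member with its standard error. Left, 120 h of depletion in the time course and in the memory experiment and the epe1 deletion (biological replicate 1) against 0 h; right, the first and the second depletion of 24 h. Filled points passed the test: sdh2 fell by 4.10 in the time course and changed by -0.30 in the memory experiment.

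In the second depletion of 24 h, members moved in both directions. pcl1 was at 214.1, 287.3 and 231.7 CPM, 1.72-fold below untreated (adjusted p = 3.63e-04), and isa1 at 100.8, 70.3 and 89.1 CPM, 1.91-fold below (8.19e-04). aco1 was at 1158, 2896 and 1535 CPM, 2.38-fold above untreated (0.00621), and glt1 at 561.8, 1253 and 743.6 CPM, 2.19-fold above (0.00758). Replicate 2 was the highest library for pcl1, aco1 and glt1 and the lowest for isa1.

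fep1 was also higher, 70.8, 123.7 and 84.0 CPM against 54.2, 59.0 and 52.3 CPM untreated (1.67-fold, adjusted p = 0.00684). sdh2 was 1.41-fold higher (0.00991) and php4 1.32-fold higher (0.0104). In all 7 of 9 members were called, 5 higher and 2 lower, where 44.7% of all genes were called. With the compared groups alone 3 were called, pcl1, isa1 and glt1, and fep1 (adjusted p = 0.0514), php4 (0.0564), aco1 (0.0571) and sdh2 (0.0669) were not. Of 13 other iron-using genes 9 were called higher, among them sdh4, a membrane anchor of succinate dehydrogenase (1.67-fold, 0.00579), and lys2, homoaconitase (1.74-fold, 0.00759). The values of this list are given without correction for GC content.

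GC content moved with these changes. The counts of the second-depletion libraries followed GC content with a rho of -0.012, 0.674 and 0.535, against -0.505 to -0.46 in the untreated libraries. aco1 and glt1 have 42.3% and 43.4% GC, and the other members 34.6% to 38.7%. After correction for GC content, the log2 change of aco1 went from 1.25 to 0.56 (adjusted p = 4.41e-04) and that of glt1 from 1.13 to 0.39 (0.00522), while fep1 (0.78), pcl1 (-0.70), isa1 (-0.65) and sdh2 (0.36) kept their calls. php4 went from 0.40 to 0.16 and lost its call (0.0555). grx4, which was not called either way, went from -0.10 to 0.23 (0.0769).

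**Figure D4:**
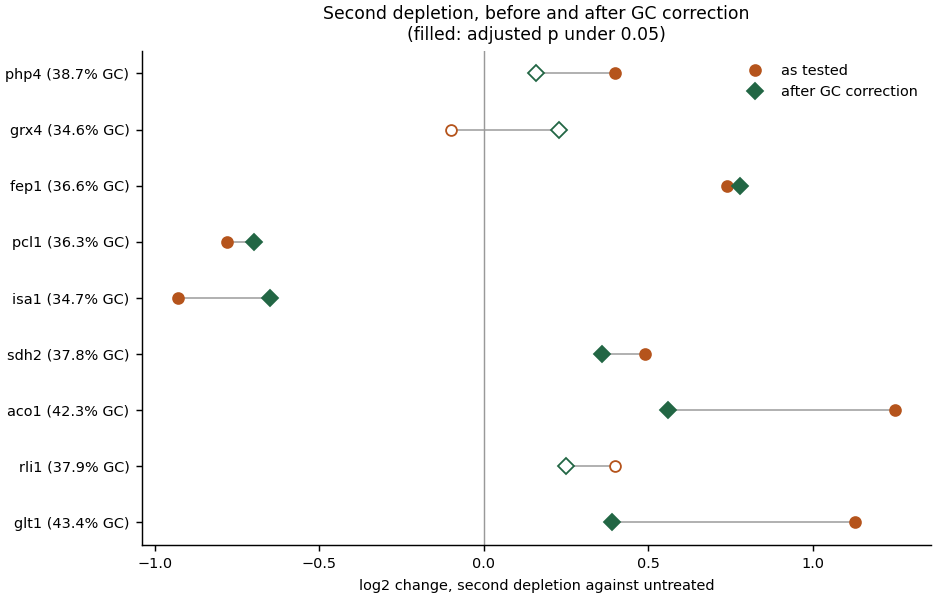
Log2 change of each member in the second depletion against untreated libraries, as tested (circles) and after correction for GC content (diamonds), filled where the adjusted p was under 0.05, with the GC content of each gene beside its name. The correction takes aco1 from 1.25 to 0.56 and glt1 from 1.13 to 0.39, and leaves fep1 near 0.78.

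Against the libraries of 24 h recovery, from which the second depletion started, 5 of 9 members were called, where 27.8% of all genes were called. aco1 was 2.52-fold higher (adjusted p = 0.00567), glt1 1.96-fold (0.0216) and sdh2 1.86-fold (3.12e-04), and pcl1 1.67-fold (5.78e-04) and isa1 1.59-fold lower (0.00724). The call of glt1 was lost without replicate 1 or 3 of the recovery or replicate 2 of the second depletion (adjusted p from 0.0774 to 0.0899). After GC correction these 5 were still called, but the log2 change of aco1 went from 1.34 to 0.75 (adjusted p = 4.08e-05) and that of glt1 from 0.97 to 0.36 (0.00978). With the compared groups alone aco1 (adjusted p = 0.0875) and glt1 (0.124) were not called.

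The effects of 120 h were compared directly between the experiments, each against its own untreated libraries. They differed for 5 of 9 members, where 3.81% of all genes were called. The memory effect minus the time-course effect was 3.82 on the log2 scale for sdh2 (± 0.70, adjusted p = 0.00242), 2.21 for aco1 (0.0427), 1.68 for fep1 (0.00908), 1.59 for isa1 (0.0252) and -0.59 for grx4 (0.00533). The differences of glt1 (2.48, adjusted p = 0.156), rli1 (1.17, 0.102), php4 (-0.94, 0.0701) and pcl1 (0.78, 0.21) did not pass. With the compared groups alone these members passed too (adjusted p from 0.0028 to 0.035). DESeq2 also called php4 (0.045) and rli1 (0.0499), and GC correction php4 (0.0465). The call of isa1 was lost without replicate 1 or 3 at 0 h, 2 or 3 at 120 h of the time course, 1 or 2 untreated, or 3 at 120 h of the memory experiment (adjusted p from 0.0507 to 0.0786). That of aco1 was lost without any library of 0 h, untreated or 120 h memory, replicate 2 or 3 at 120 h of the time course, or replicate 3 of 24 h recovery (0.0503 to 0.125).

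The effects of the first and the second 24 h differed for 4 of 9 members, where 43.4% of all genes were called: glt1 (2.37, adjusted p = 0.0397), aco1 (1.53, 0.0483), rli1 (1.16, 0.0216) and fep1 (0.99, 0.032). All 4 calls were lost without replicate 2 of the second depletion (adjusted p from 0.0696 to 0.193) and also without replicate 1 of the first 24 h (0.0586 to 0.117). Over 40 refits, which leave out a library or change a setting, the call held in 38 for rli1, 33 for fep1, 29 for glt1 and 19 for aco1. After GC correction aco1 (0.80, adjusted p = 0.25) and glt1 (1.56, 0.154) were no longer called, and with the compared groups alone aco1 was not (0.0599).

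Over the 11 group means of the degron strain, each experiment centred on its own mean, the pattern of php4 was most like those of rna4 (Pearson's r = 0.956), SPAC1B3.10c (0.913) and SPCC188.14 (0.91), among 6080 genes. The pattern of pcl1 was most like those of the non-coding genes SPNCRNA.778 (0.964), SPNCRNA.1083 (0.963) and SPNCRNA.270 (0.944). SPNCRNA.778 was at a low level, with a mean of 2.04 CPM at 120 h of the time course. SPNCRNA.1083 and SPNCRNA.270 had similar levels (means of 46.2 and 41.8 CPM at 0 h, 22.6 and 19.0 CPM at 120 h), and whether these genes overlap was not examined. Among the members, php4 had r = -0.918 with isa1, -0.829 with sdh2 and 0.799 with grx4. These values describe 11 points that share libraries and scaling.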

How the data were processed

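Polyadenylated RNA was sequenced by the study, and per the file headers the deposited values are raw counts per gene, in 3 tables on build ASM294v2. Trimmomatic and STAR are named in the submitters' processing notes; the counting tool and its use of strand are not given in the sources used here. The last digit of a column name (0 to 2) was read as replicate 1 to 3. For the second depletion the treatment label read "-" and the titles, which name that depletion, were followed. The tables hold 6 further sample columns that fit no label; they were left out. No pair of replicates was a duplicate (lowest chi-squared over degrees of freedom 3.61 over 39 pairs).

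From the counts, 19 comparisons were tested in 4 fits (time course, memory, deletion with 0 h and 120 h, both degron experiments) with edgeR 4.0.16 in R 4.3.3 (TMM, filterByExpr, robust quasi-likelihood F-tests, 2-sided, Benjamini-Hochberg over all genes, called at an adjusted p under 0.05). The fits share their spread over all groups in them. The joint CPM cover the 6521 genes that all tables share, by identifier, and that passed the filter on low counts. Alternatives were DESeq2 1.42.0 and its size factors, no filter, the compared groups alone, a replicate block, a GC correction (loess of log2 levels on GC content), and leaving out each library. No label pairs the replicates. For compared groups, deviations of same-numbered libraries from their group means were correlated over genes. The lowest correlation was above 0.1 for 0 h with 72 h (0.161) and for 48 h with 72 h (0.369). It was not for any other compared groups, among them 0 h with 48 h (0.023). The fits were tested on simulated counts.

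Coordinates and symbols come from the tables. GC content comes from the reference annotation (ASM294v3), which matched 6626 of 6745 identifiers, of which 6594 share a start or an end. The members and lists were chosen with earlier results of these data known; the lists matched 3 of 3 CCAAT-complex, 10 of 11 uptake, 10 of 14 assembly and 13 of 14 other iron-using genes, and the unmatched symbols were not analysed here. Named from a list are up to 4 genes with the lowest adjusted p in a comparison. No fold is given for the uptake genes shu1 and str3, which were near 0 counts at 0 h.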

Additional observations from a re-analysis of the deposited data

Results flagged for a closer look

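The effect of 120 h of depletion differed between the memory experiment and the time course, by an interaction term in the fit of both, for sdh2 (3.82 on the log2 scale), aco1 (2.21), fep1 (1.68), isa1 (1.59) and grx4 (-0.59). sdh2 was at 24.3 ± 15.7 CPM (SD, n = 3) after 120 h in the time course and at 198.1 ± 20.8 CPM in the memory experiment. The untreated libraries of the experiments also differed, with php4 at 85.0 ± 20.1 CPM at 0 h and 150.2 ± 3.45 CPM untreated in the memory experiment. The part of the experiment's own batch in these differences was not tested.

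The effect of 24 h differed between the second depletion and the first for glt1 (2.37), aco1 (1.53), rli1 (1.16) and fep1 (0.99). In this comparison 43.4% of all genes were called, a share close to that of the members. The number of calls therefore does not set the members apart from other genes. The calls of all the members named were lost without replicate 2 of the second depletion, and those of aco1 and glt1 were absent after GC correction.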

How the results depend on the processing

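No change of a called member reversed its sign under any alternative run. RLE size factors, no filter and the subtracted overlap of pcl1 changed no call. Counts of the 9 members called that moved by over 1.5 times were as follows. At 24 h against 0 h the count went from 0 to 1 with DESeq2, the compared groups alone, the replicate block and the block with GC correction. At 48 h it went from 1 to 4 with DESeq2 and with the block, and to 3 with the compared groups alone and with the block and GC correction. At 72 h it went from 1 to 2 with DESeq2, and to 3 with the block with or without GC correction. At 96 h it was 2 with the compared groups alone, as against 0. With the compared groups alone it was 3 and 4 for the deletion replicates 1 and 2 against 0 h, 3 between them, 1 for 24 h recovery against untreated, 3 for the second depletion against untreated and against recovery, 3 for 24 h recovery against 120 h, and 9 for the difference of the 120 h effects (8 with the block and GC correction). DESeq2 gave 1 for deletion replicate 2, 1 for 48 h recovery and 2 for 24 h recovery against 120 h. GC correction, with or without the block, gave 1 for 24 h recovery against untreated, 2 for 24 h recovery against 120 h, and 2 for the difference of the 24 h effects. The cause of these moves was not tested, and the share of all genes called under each alternative is not given here. The block changed no count by over 1.5 times other than those named, and no label pairs the replicates.

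Leaving out 1 library at a time gave 0 to 2 members called at 24 h, 1 to 5 at 48 h, 0 to 5 at 72 h, 0 to 0 at 96 h, 6 to 9 at 120 h, 0 to 0 for 72 h against 48 h and 5 to 9 for 120 h against 96 h. It gave 0 to 4 and 0 to 5 for the deletion replicates 1 and 2, 0 to 0 between them and 9 to 9 for their mean against 120 h. In the memory experiment it gave 2 to 3 at 120 h, 0 to 1 after each recovery, 7 to 8 for the second depletion, 1 to 2 for recovery against 120 h and 4 to 7 for the second depletion against recovery. The differences of effects gave 3 to 7 at 120 h and 0 to 6 at 24 h. The share of all genes called in these refits is not given here. No alternative changed the depth, so its part in these counts was not tested.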
